A study of Mus musculus with 125 samples.

Results

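The genes described here are 8 of the 27998 genes in the single-cell gene table of a mouse endothelial atlas, and all of them encode enzymes that oxidise, conjugate or detoxify small molecules: Xdh, Fmo2, Gstm1, Gsta4, Sult1a1, Ephx1, Por and Cat. They were listed by name, with the deposited single-cell levels of brain endothelial cells already known, under a label that calls them gained in the adult. The listing set no threshold on a value. Levels were read as UMIs (unique molecular identifiers, 1 per captured RNA molecule) in 5 brain libraries, and open chromatin as the ATAC-seq peaks that overlapped each gene or lay within 50 kb of it in 66 peak lists. The single-cell values are given as a description with no test, because they stood behind the choice of genes and each age had 1 library. The label held for part of the list only: Gsta4 and Cat were lower in the adult library than in the P8 library.

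Xenobiotic enzymes work in steps. Oxidases and reductases first add or expose a reactive group, transferases then attach glutathione or sulfate to it, and hydrolases and catalase deal with the epoxides and peroxides formed on the way. In brain microvessels such enzymes are studied as a metabolic side of the blood-brain barrier, next to its tight junctions and efflux pumps. Liver parenchyma is the tissue best known for most of them.

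The series compared endothelial cells of different organs and ages by ATAC-seq (66 libraries), RNA-seq (54 libraries) and single-cell RNA-seq (5 libraries). For ATAC-seq, nuclei came from mice given tamoxifen, in which GFP marked the vasculature, and endothelial libraries were set beside input libraries of the same tissue's nuclei. The promoter that drives the transgene, the alleles, the strain and the sex are not given in the sources used here, and neither is whether a library pooled animals. Adult mice were 2 months old, the P6 label covers tissue whose protocol gives collection at P7, and the E12 label covers embryos collected at E12.5. The groups used here were endothelial libraries of brain, retina, heart, lung, liver and kidney in adult (12 libraries) and P6 mice (14), endothelial libraries of E12 brain, heart and trunk (11), and input libraries at adult (10), P6 (16) and E12 (3). Single cells were brain cells enriched with anti-CD31 beads, from whole E9.5, E12.5 and E16.5 brain dissociated with collagenase and from P8 and adult cortex dissociated with a tissue kit, so the embryonic libraries differ from the later ones in tissue and method as well as age. The matrix of the library labelled E16.5 was deposited under a name that carries a later embryonic age, and the label was kept, so values given for E16.5 hold for the library so labelled. Nothing in the labels says that replicate libraries came from separate animals, so p-values measure the spread between these libraries, which may be technical.

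A barcode counted as endothelial when it held at least 200 genes, at most 10% mitochondrial UMIs and at least 3 of Cdh5, Pecam1, Egfl7, Esam, Tie1 and Kdr, all of them endothelial surface or signalling genes. From the youngest library to the adult one, 5644, 6347, 3786, 4778 and 3154 barcodes were kept, with a median of 4896 to 10469 UMIs, lowest in the adult. At most 35 barcodes were shared between any pair of libraries, 0.925% of the smaller one. The 7 markers of mural cells (pericytes and smooth muscle) summed to between 94.6 and 187 CPM (UMIs of a gene per 1000000 UMIs of the same barcodes) at the 3 embryonic ages, 694 at P8 and 1743 in the adult, with all 7 detected at every age. The 4 globin markers summed to between 252 and 16053, highest at P8, and the 5 neuronal markers to 71.9 at P8 and 321 in the adult, while the 4 cycling markers summed to 313 at P8 and 3.27 in the adult. The 5 oligodendrocyte markers summed to 6.10 at P8 and 55.5 in the adult, and the 6 of microglia or macrophages to 7.74 and 48.3. The 6 astrocyte markers went the other way, with 101 and 69.3. The part of these other cells in the levels below was measured only by leaving out the barcodes that carried at least 2 markers of 1 other cell type.

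Of the 8 genes, 6 have a listed transcription start in the RefSeq promoter table. The 250 bases before each start are printed because the peaks described below divide these starts into those open in every library and those open in some (RefSeq, build GRCm38.p6, 5′ to 3′, first listed start of each gene). Capitals mark every match, on either strand, to 8 short motifs, whose letters and counts follow the sequences: the core of the antioxidant response element, the core of the site of the Ahr and Arnt pair, the element bound by TBP, the CCAAT box, the GC box, the E-box, the ETS core and the core of the glucocorticoid receptor site. A match on the other strand appears as the reverse complement, and neighbouring matches that overlap appear as 1 run of capitals.
Fmo2, chr1:162898759-162899008, minus strand: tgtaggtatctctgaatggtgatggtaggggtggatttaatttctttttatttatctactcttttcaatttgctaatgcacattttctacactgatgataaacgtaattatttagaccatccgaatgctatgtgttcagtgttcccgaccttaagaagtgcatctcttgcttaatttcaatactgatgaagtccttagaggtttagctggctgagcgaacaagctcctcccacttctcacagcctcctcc
Gstm1, chr3:108017974-108018223, minus strand: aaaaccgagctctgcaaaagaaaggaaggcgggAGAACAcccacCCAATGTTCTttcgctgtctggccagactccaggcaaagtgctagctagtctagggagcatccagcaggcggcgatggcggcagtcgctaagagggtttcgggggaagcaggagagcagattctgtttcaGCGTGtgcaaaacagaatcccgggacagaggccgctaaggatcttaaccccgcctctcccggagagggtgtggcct
Sult1a1, chr7:126676419-126676668, minus strand: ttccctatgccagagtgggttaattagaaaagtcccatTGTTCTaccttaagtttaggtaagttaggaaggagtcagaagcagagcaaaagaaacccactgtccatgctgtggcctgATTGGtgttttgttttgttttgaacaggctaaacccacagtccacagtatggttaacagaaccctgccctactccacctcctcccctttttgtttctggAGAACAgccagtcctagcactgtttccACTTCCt
Ephx1, chr1:181017570-181017819, minus strand: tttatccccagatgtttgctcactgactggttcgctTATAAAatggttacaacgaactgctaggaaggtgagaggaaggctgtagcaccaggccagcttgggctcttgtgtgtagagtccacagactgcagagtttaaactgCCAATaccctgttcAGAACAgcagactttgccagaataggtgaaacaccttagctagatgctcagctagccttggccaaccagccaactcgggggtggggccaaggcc
Por, chr5:135688895-135689144, plus strand: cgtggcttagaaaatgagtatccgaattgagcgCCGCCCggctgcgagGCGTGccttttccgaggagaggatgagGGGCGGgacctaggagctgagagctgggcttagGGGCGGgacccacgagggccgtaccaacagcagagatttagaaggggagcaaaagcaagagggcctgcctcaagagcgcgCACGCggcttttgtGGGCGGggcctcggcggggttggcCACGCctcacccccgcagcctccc
Cat, chr2:103485154-103485403, minus strand: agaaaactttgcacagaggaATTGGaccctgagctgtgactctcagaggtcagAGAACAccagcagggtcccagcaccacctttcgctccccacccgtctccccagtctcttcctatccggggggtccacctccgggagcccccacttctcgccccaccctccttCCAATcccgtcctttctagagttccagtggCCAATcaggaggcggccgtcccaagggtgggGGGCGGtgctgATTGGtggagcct

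The Por, Cat and Gstm1 starts follow GC-rich sequence, with 65.6%, 62% and 57.6% G or C and 21, 9 and 13 CpG dinucleotides, against medians of 52.4% and 6 over all 32851 promoters in the table. Fmo2, Sult1a1 and Ephx1 lay below both medians, with 39.6%, 45.6% and 51.2% G or C and 4, 0 and 3 CpG dinucleotides. AGAACA, the core of the glucocorticoid receptor site, occurred in 4 of the 6 windows (Gstm1, Sult1a1, Ephx1 and Cat), and 16.1% of all promoters held it. The CCAAT box, with those letters, occurred in the same 4 windows, against 33.8% of all promoters. The GC box, GGGCGG, was present in Por and Cat, and 32.7% of all promoters held it. The core of the site of the Ahr and Arnt pair, GCGTG, was in Gstm1 and Por (28.2% of all promoters). The TBP element, TATAAA, was in Ephx1, 214 bases before the start (12.4% of all promoters). The ETS core, GGAAGT, was in Sult1a1 (19.7% of all promoters). The core of the antioxidant response element, TGACNNNGC, which 10.2% of all promoters held, and the E-box CACGTG, which 6.02% held, matched none of the 6 windows, and the Fmo2 window held none of the 8 motifs. Fmo2 and Gstm1 each have a second listed start, not counted here. The window before that of Fmo2 held the ETS core and the glucocorticoid receptor core. The window before that of Gstm1 held the Ahr and Arnt core, the TBP element (30 bases before that start) and the CCAAT box. A match describes the letters of these windows and is no evidence of binding.

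In brain endothelial barcodes, Xdh and Fmo2 were close to undetected before adulthood and abundant in the adult library. Sult1a1 and Ephx1 were present earlier at low levels and were more than 10-fold higher in the adult than at P8, and Gstm1 was 2.52-fold higher. At a ratio of at least 2, 5 of the 8 genes were higher in the adult than at P8 and none lower, where 13.6% of the 8838 genes with at least 10 CPM in either library were higher and 10.4% lower. These counts use the values the genes were chosen on, and nothing is read from them. Against E16.5, 7 were higher and Cat was lower, where 24.5% of 8934 genes were higher and 16.8% lower.

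Xdh encodes xanthine dehydrogenase, which oxidises hypoxanthine and xanthine to urate in purine breakdown and, in its oxidase form, yields superoxide and hydrogen peroxide. Its level in the 3 embryonic libraries was 0, 0.0124 and 0.0471 CPM in order of age, and it was 0.0993 CPM at P8 and 177.6 CPM in the adult, from 0, 1, 2, 6 and 4130 UMIs. Only the adult library held the gene above a handful of UMIs. The ratio of adult to P8 was 1790, with a 95% Poisson interval of 822 to 4879. At E9.5, with 0 UMIs, the adult was set against a limit of 3 UMIs (0.0656 CPM) and was 2709-fold above it. The exact 95% interval of the ratio of adult to E9.5 began at 2202. Such intervals and limits cover counting error only.

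Fmo2 encodes a flavin-containing monooxygenase that oxidises nitrogen and sulfur compounds and is best known from lung. Its level in the embryonic libraries was 0, 0.0249 and 0 CPM in order of age, and it was 1.47 CPM at P8 and 454 CPM in the adult, from 0, 2, 0, 89 and 10553 UMIs. With 0 UMIs at E9.5 and E16.5, the adult was set against limits of 3 UMIs (0.0656 and 0.0706 CPM). It was 6921-fold and 6428-fold above them. The exact 95% intervals of the ratios of adult to E9.5 and to E16.5 began at 5628 and 5227. The P8 library held a low level, which the 3 embryonic libraries did not reach. The ratio of adult to P8 was 308 (95% interval 250 to 384). Among adult barcodes that carried none of the 6 endothelial genes, 2.84% had an Fmo2 UMI and 6.82% an Xdh UMI (176 barcodes, median 2464 UMIs), against 47.7% and 54.9% of the gated barcodes (median 4896 UMIs). The depths of these barcodes differ, and the part of depth in that gap was not tested.

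Of the conjugating enzymes, Sult1a1, a cytosolic sulfotransferase for phenols, was at 0.350, 6.78, 17.6, 11.2 and 184 CPM from E9.5 to the adult, so its adult level was 16.5-fold above P8 (95% interval 15.2 to 18.0) and 10.5-fold above E16.5. Gstm1, a mu-class glutathione S-transferase, was at 11, 23.6, 133, 108 and 273 CPM and was higher at E16.5 than at E12.5 by 5.66-fold and higher in the adult than at P8 by 2.52-fold (2.44 to 2.61). Gsta4, the alpha-class transferase that takes up the lipid peroxidation product 4-hydroxynonenal, was at 78.2, 12.5, 19.3, 85.9 and 59.4 CPM. It was high at E9.5, low at E12.5 and E16.5 and high again at P8, and the adult level was 0.691 of that at P8 (0.651 to 0.734). Gstm1 and Gsta4 belong to families of related genes. How the authors' counting treated reads that match more than 1 family member is not given in the sources used here, so their levels are uncertain to that extent.

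Ephx1, microsomal epoxide hydrolase, which opens epoxides to diols, was at 0.241, 0.199, 2.12, 7.01 and 95.7 CPM, and the adult was 13.7-fold above P8 (12.3 to 15.2). It was already 3.31-fold higher at P8 than at E16.5. Por, the reductase that passes electrons to the microsomal cytochromes P450, was at 32.6, 36.4, 38.5, 53.2 and 87.2 CPM. Its adult level was 1.64-fold that at P8 (1.55 to 1.73), short of the 2-fold used here to call a gene higher. Cat, the peroxisomal catalase that splits hydrogen peroxide, was at 44.1, 98.0, 144, 80.5 and 48.6 CPM. It was highest at E16.5, and its adult level was 0.603 of P8 (0.565 to 0.644) and 0.337 of E16.5.

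**Figure D1:**
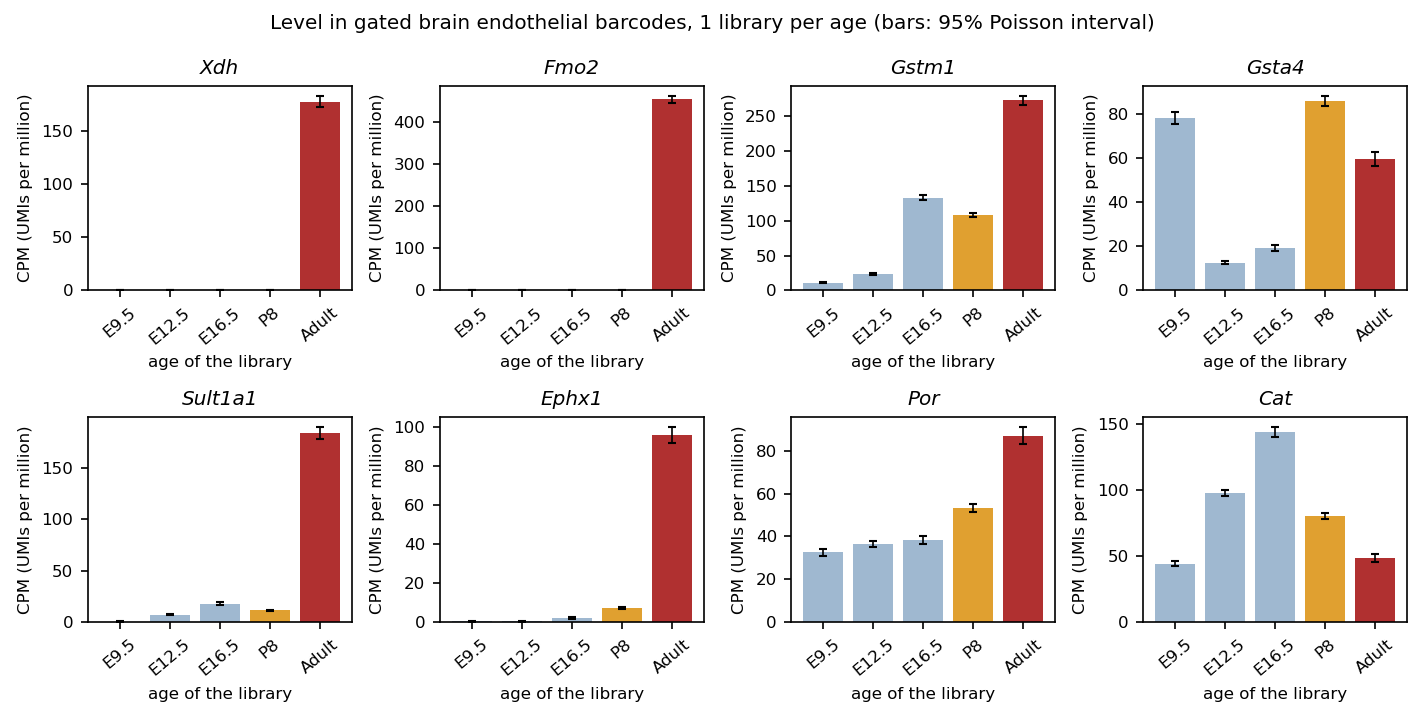
Summed CPM in gated brain endothelial barcodes (y axis, linear from 0, one scale per gene) at 5 ages (x axis), 1 library each, with bars of the 95% Poisson interval, which covers counting error only. Xdh, Fmo2, Sult1a1 and Ephx1 stand out in the adult library, Gstm1 and Por are also highest there, and Gsta4 and Cat have their highest levels at P8 and E16.5.

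The same 5 genes were at least 2-fold higher in the adult with 2 or 4 endothelial genes required, with at most 5% mitochondrial UMIs, with each barcode thinned to 1000 UMIs, and as a mean over barcodes. The size of the ratios moved more: that of Xdh was 458 with at most 5% mitochondrial UMIs and 981 after thinning, and that of Fmo2 was 198 after thinning. Adult Fmo2 was at 317 CPM with at most 5% mitochondrial UMIs. Without the barcodes that carried at least 2 markers of another cell type, which left 1183 adult and 666 P8 barcodes, Fmo2 was at 475 CPM in the adult and 1.45 at P8, Xdh at 203.6 and 0, and Ephx1 at 97.1 and 5.79. The barcodes kept could still carry 1 marker of another type. A limit of 1.5-fold in place of 2 added Por as the sixth gene.

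After thinning to 1000 UMIs, an adult barcode held a UMI of 1.12 of the 8 genes on average, against 0.166, 0.176 and 0.344 in the embryonic libraries in order of age and 0.341 at P8. None of the 8 was detected in 29.4% of adult barcodes and in 70.3% of P8 barcodes. Thinning left out 1.84% of the adult and 0.649% of the P8 barcodes as too shallow.

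Within the adult library, levels were also read by vessel segment. Barcodes were called arterial (431), capillary (2380) or venous (44) when they carried at least 2 markers of that segment and more of it than of the others. Another 299 barcodes had no segment call, with Fmo2 at 687 and Xdh at 190 CPM. Fmo2 was at 8.63 CPM in arterial, 562 in capillary and 1039 in venous barcodes, with 95% intervals of 6.39 to 11.4, 549 to 574.5 and 937 to 1150. They cover counting error in 1 library, so no difference between segments was tested. Xdh was at 45.6 in arterial, 229 in capillary and 208 in venous barcodes, so arterial barcodes were again the lowest. Ephx1 had the opposite order, with 157 in arterial barcodes against 75.6 in capillary and 74.8 in venous ones. The same order held for Ephx1 at P8, where 209 arterial barcodes were at 45.8 CPM and 4074 capillary barcodes at 4.59. Sult1a1 was at 166, 184 and 169 CPM in arterial, capillary and venous barcodes.

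Gstm1 was at 224 in arterial, 298 in capillary and 230.0 in venous barcodes, Por at 61.9, 94.2 and 99.8, Gsta4 at 45.8, 67.4 and 38.8, and Cat at 55.7, 44.9 and 63.7 CPM. The venous values rest on 44 barcodes and between 14 and 375 UMIs a gene. Segment calls come from 1 library, and the arterial barcodes were deeper, with a median of 9694 UMIs against 4552 in capillary barcodes.

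**Figure D2:**
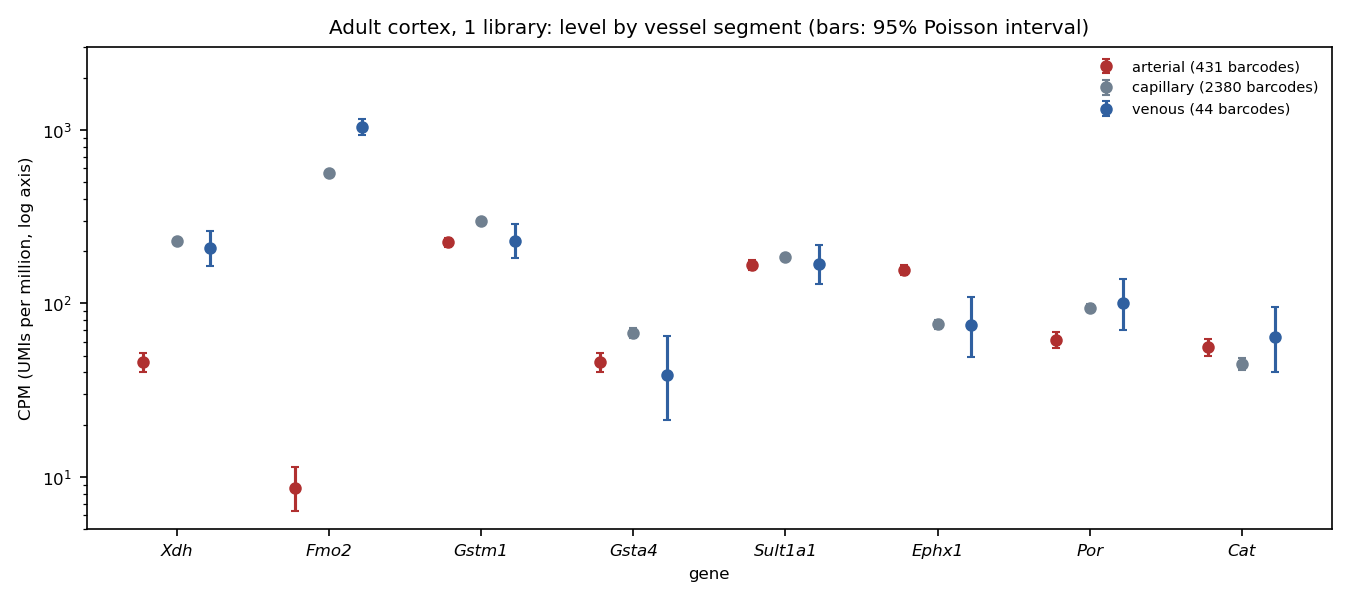
CPM on a log axis for the 8 genes in adult barcodes called arterial, capillary or venous, all from 1 library, with bars of the 95% Poisson interval. Fmo2 and Xdh sit lowest in arterial barcodes, and Ephx1 sits highest there.

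Adult barcodes called mural (121, with at least 3 mural markers and fewer than 3 of the endothelial genes) gave a reference for the neighbouring cells of the vessel wall. In them Xdh was at 11.5 and Fmo2 at 9.85 CPM, below the 177.6 and 454 of the endothelial barcodes. In the same mural barcodes Ephx1 was at 107 (95% interval 82.4 to 136), an interval that holds the endothelial 95.7, while Sult1a1 was at 83.8 and Gstm1 at 124.8. At P8, 137 mural barcodes had Ephx1 at 33.8 CPM (22.1 to 49.5), against 7.01 in endothelial ones. In endothelial barcodes with fewer than 2 markers of any other cell type Ephx1 was at 97.1, as given above. Adult barcodes called microglia or macrophage (42) had Xdh at 46.2 (5 UMIs) and no Fmo2 UMI, and those called erythroid (32) had Xdh at 48.3 and Fmo2 at 77.3 CPM (5 and 8 UMIs). The microglia or macrophage barcodes had Por at 166 and Cat at 222 CPM (18 and 24 UMIs), above the 87.2 and 48.6 of adult endothelium. At P8, 21 astrocyte barcodes had Gstm1 at 597 and Gsta4 at 193 CPM (71 and 23 UMIs), above the 108 and 85.9 of P8 endothelium. Some of these levels rest on few UMIs, and no difference between cell types was tested.

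Lists of related genes, written with earlier results of these data known, give the setting. Among 21 measured oxidising enzymes, 6 were at least 2-fold higher in the adult than at P8 and 1 was lower, with a median of 0.20 on the log2(CPM + 1) scale, against 0.07 over all 8838 genes and 2.46 over the 8 genes described here. Aldh2, mitochondrial aldehyde dehydrogenase, was at 529 in the adult and 52.0 CPM at P8, Aldh1a1, a retinaldehyde dehydrogenase, at 113.5 and 4.76, and Fmo1, the neighbour of Fmo2, at 70.8 and 11.1. Among 13 conjugating enzymes 3 were higher and 1 lower (median 0.06), and the one with a level of at least 50 was Gstm5, at 37.6 in the adult and 88.1 at P8.

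Of 26 antioxidant genes, 2 were higher and 5 lower (median −0.35). Txnip, an inhibitor of thioredoxin, was at 233 in the adult and 67.6 at P8, while Prdx4 and Prdx3, peroxiredoxins of the endoplasmic reticulum and the mitochondrion, were at 76.9 and 29.5 in the adult against 177 and 68.2 at P8. Hmox1, heme oxygenase, was at 15.7 and 52.2, Gpx7 at 23.3 and 57.4, and Sesn3 at 26.2 and 69.7. Of 9 purine genes, 3 were higher and 2 lower (median −0.29): Nt5c2, a nucleotidase that yields inosine, was at 77.4 and 12.7 and Entpd1, an ectonucleotidase, at 115 and 45.9, while Aprt, which salvages adenine, was at 44.5 and 239 and Slc29a1, a nucleoside transporter, at 18.4 and 82.9. Of 19 peroxisomal genes 0 were higher and 1 lower (median −0.19). Of 18 regulators of such enzymes 6 were higher and 0 lower (median 0.56), among them Epas1, the hypoxia-inducible factor of endothelium, at 1481 and 431. Against E16.5 the counts were 7 higher and 0 lower of 20 oxidising enzymes, 3 and 5 of 14 conjugating enzymes, 3 and 11 of 28 antioxidant genes, 4 and 2 of 9 purine genes, 1 and 2 of 19 peroxisomal genes and 2 and 2 of 18 regulators, beside the 24.5% and 16.8% of all genes. None of these counts was tested, and the 13.6% and 10.4% of all genes given above are the background of those against P8.

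By the distance of their profile over the 5 libraries from the median profile of the 8 genes, the nearest of 3422 other genes were H2-Q4, Serinc3, Prom1, Epas1, Psmb9, Plcb1, Zbtb4, Gcnt2, Tmem140 and Akap2. The root mean square distance ran from 0.288 for H2-Q4 to 0.418 for Akap2 on the log2(CPM + 1) scale, relative to the adult. Among the 8 genes, the distance to their own median was 0.936 for Gstm1 and 1.11 for Sult1a1 and ran up to 4.49 for Fmo2. The 10 genes were chosen as the nearest, and both sets of values come from the same 5 libraries. The embryonic libraries among them differ from the later ones in tissue and dissociation as well as age.

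In open chromatin, which offers replicates, Xdh was the one gene of the 8 called for its number of peaks between adult and P6 endothelium in lists of equal length. In the lists as deposited Xdh was not called, and 6 others (Fmo2, Gstm1, Sult1a1, Ephx1, Por and Cat) were called as lower in the adult, by −4.17 to −1.47 peaks, as were 16266 of all 20745 genes. Peak lists differed in length, with a median of 36727 peaks in adult, 69024 in P6 and 101172 in E12 endothelial libraries, so every list was first reduced to its 19437 strongest peaks by −log10 p, the length of the shortest list. In these lists of equal length, adult Xdh had 5 and 5 peaks within 50 kb in brain, 4 and 2 in retina, 6 and 6 in heart, 5 and 6 in lung, 9 and 9 in liver and 9 and 9 in kidney. At P6 the counts were 2, 4 and 4 in brain, 2, 1 and 2 in retina, 3 and 3 in heart, 3 and 3 in lung, 6 and 7 in liver and 6 and 5 in kidney. In brain, heart, lung, liver and kidney every adult library was above every P6 library of the organ, and in retina the groups met at 2 peaks. Of all 18866 genes tested, 5.2% in brain, 16% in heart, 15.5% in lung, 8.4% in liver and 8.5% in kidney were higher in the adult with no overlap.

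The mean was 6.25 ± 2.30 peaks in adult (SD, n = 12) and 3.64 ± 1.78 at P6 (SD, n = 14), and the difference within organs averaged 2.42 peaks, positive in 6 of 6 organs. The exact 2-sided permutation test within organs gave p = 2.32e-05, and 0.0230 after Benjamini-Hochberg adjustment over 18866 protein-coding genes. Of those genes 2.24% were called, 1.35% as higher in the adult and 0.896% as lower, and 1 of the 8 genes was called. Leaving out each of the 26 libraries in turn kept the call, with adjusted p from 0.0257 to 0.0412. The result depends on equal list lengths: in the lists as deposited Xdh had 9.08 ± 3.66 peaks in adult (SD, n = 12) and 9.93 ± 3.43 at P6 (SD, n = 14), and the difference turned to −1.22 (exact permutation test, adjusted p = 0.244), and with the peaks of these lists that had a −log10 q of at least 5 it was −1.14 (adjusted p = 0.194). Ranking peaks by fold in place of −log10 p gave a difference of 0.72 and ended the call (exact permutation test, adjusted p = 0.326). In lists of equal length the other 7 genes were not called, with differences from −0.33 for Por to 0.67 for Gstm1 and adjusted p of 0.230 to 1 by the same test. The E12 endothelial libraries, which cover other tissues and were not tested, had 1 to 3 peaks at Xdh, with a median of 2.

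**Figure D3:**
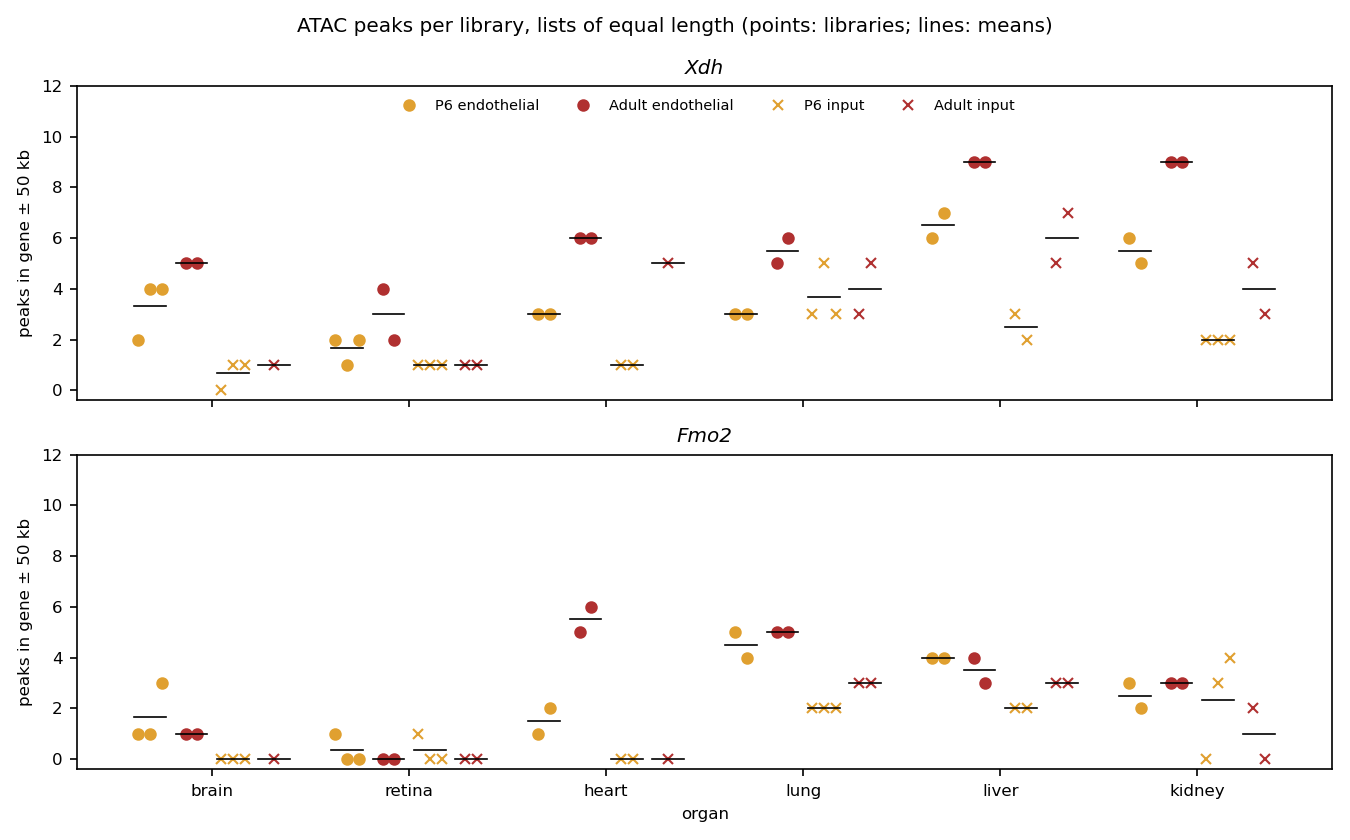
Number of ATAC peaks overlapping Xdh (top) or Fmo2 (bottom) or within 50 kb, in lists of equal length, by organ (x axis); points are libraries, crosses are input libraries and black lines are means. Adult endothelial points of Xdh lie above P6 points in each organ apart from a tie in retina, and Fmo2 does so in heart.

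The Xdh regions that differed most between adult and P6 endothelial lists of equal length lay at or near one end of the gene. Xdh spans chr17:73883895-73950397 (mm10), and the gene table used here gives no strand, so the end with the higher coordinate is called the upper end. A peak within 500 bp of the upper end was in 11 of 12 adult, 0 of 14 P6 and 0 of 11 E12 endothelial lists of equal length. The missing adult library was 1 of the 2 from retina. Among inputs, 7 of 10 adult, 5 of 16 P6 and 0 of 3 E12 lists had it, and these were from heart, lung, liver and kidney, with none from brain or retina. In the lists as deposited the peak was in 12 of 12 adult, 11 of 14 P6 and 0 of 11 E12 endothelial lists, so at P6 it was mostly called but ranked lower. The wider region that covers this end, chr17:73949531-73950987, had a peak somewhere in it in 7 of 11 E12 lists as deposited and in 0 of equal length.

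For a peak at either end of a gene, an alternative added after the data were seen, the exact permutation test gave Xdh a difference of 0.92 of libraries between adult and P6 (p = 3.09e-05), and an adjusted p of 0.239 over 12369 genes by Benjamini-Hochberg. No gene was called in that test (0%, with 615 at an unadjusted p under 0.05), so Xdh did not pass it. With 129600 relabellings the smallest p this exact permutation test can give is 7.72e-06. Over 12369 genes a lone gene at that p would stay above 0.05 after adjustment, so the test could not call Xdh alone. A second region inside the gene, chr17:73941958-73942808 and 8.01 kb from the upper end, had a peak in 10 of 12 adult, 0 of 14 P6 and 0 of 11 E12 endothelial lists of equal length and in 1 of 10 adult inputs. As deposited these counts were 12, 8, 0 and 7. The adult endothelial lists of equal length without this peak were both from retina. Outside the gene, chr17:73962213-73963338, 12.4 kb beyond the upper end, had a peak in 11 adult, 11 P6 and 0 E12 endothelial lists of equal length. As deposited it had one in 12, 14 and 4. For chr17:73970175-73971078, 20.2 kb beyond the upper end, the counts were 12, 10 and 10, and 12, 14 and 11 as deposited. In retina that region had a peak in 2 adult and 0 P6 lists of equal length. One region below the gene, chr17:73867584-73868570, went the other way, with 2 adult, 8 P6 and 8 E12 lists of equal length (3, 11 and 11 as deposited). These 19 regions were found from the same lists as the count of peaks, so their counts describe that result and add no test to it. No other protein-coding gene lay within the 50 kb window.

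**Figure D4:**
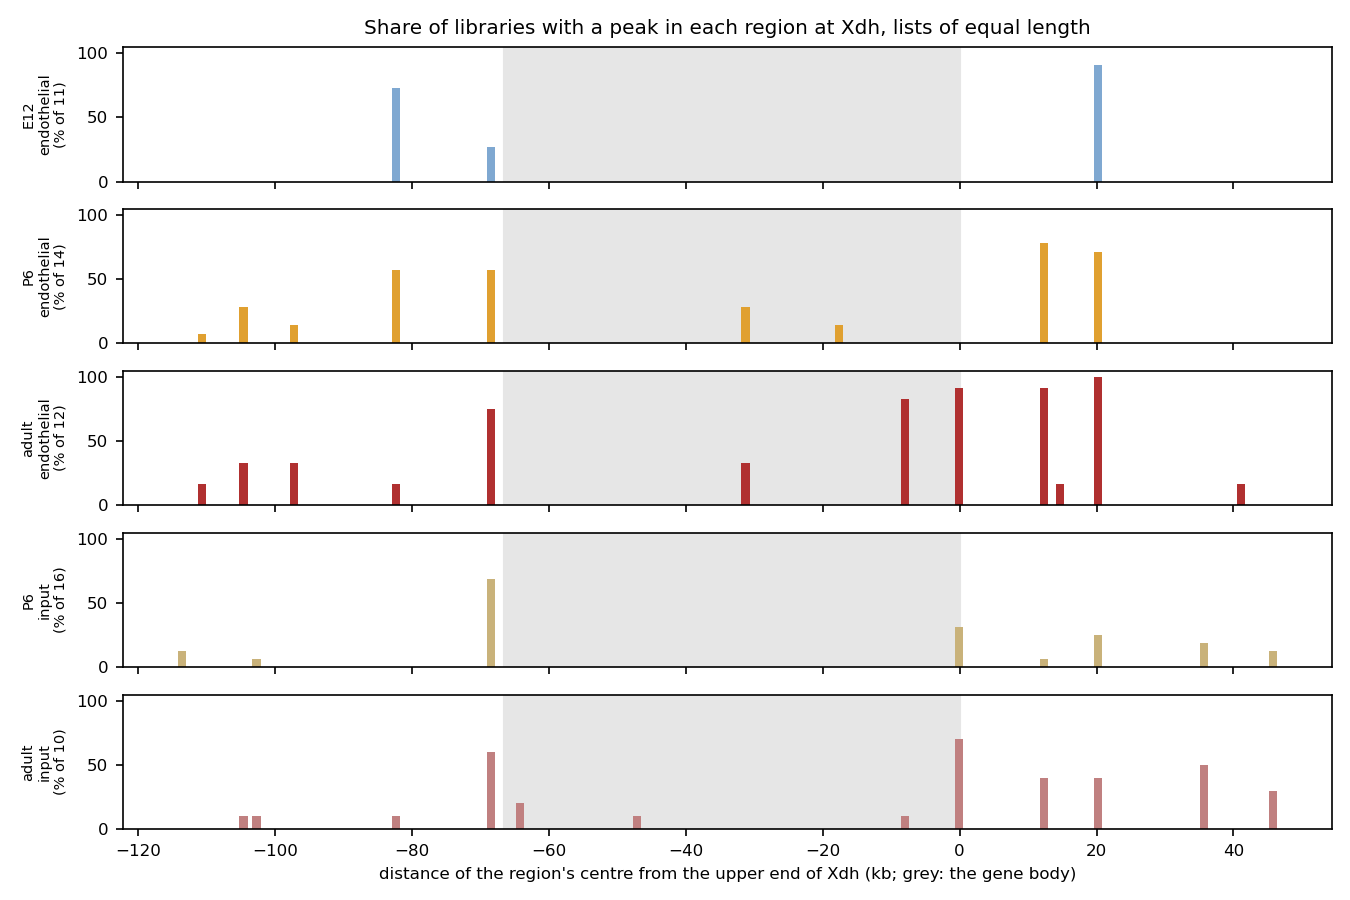
Share of libraries with a peak (y axis, %) in each of the 19 regions around Xdh, by distance from the upper end of the gene (x axis, kb, gene body in grey), for endothelial libraries of 3 ages and inputs of 2, in lists of equal length. The bars at the upper end and 8.01 kb inside it are present in adult endothelial libraries and absent in endothelial libraries of E12 and P6, while inputs of both ages have a bar at the upper end.

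Against input, Xdh and Fmo2 were called as having more peaks in endothelium at both ages, and none of the other 6 was called. These comparisons use the same adult and P6 endothelial libraries as the comparison of ages, and the values stand side by side without being combined. In the adult, Xdh inputs had 1 peak in brain, 1 and 1 in retina, 5 in heart, 5 and 3 in lung, 5 and 7 in liver and 5 and 3 in kidney, a mean of 3.6 ± 2.12 (SD, n = 10) against the 6.25 of endothelium. The difference within organs was 2.75 peaks, positive in 6 of 6 organs (exact permutation test, adjusted p = 0.0321), where 4.64% of 19318 genes were called, 3.11% as higher in endothelium and 1.53% as lower. At P6 the means were 3.64 and 1.81 ± 1.22 (SD, n = 16), the difference was 2.03, positive in 5 of 6 organs, and the adjusted p was 0.00376 by the same exact test, where 22.3% of 19584 genes were called, 12.7% as higher and 9.61% as lower. Lung was the exception at P6, with 3 and 3 peaks in endothelium against 3, 5 and 3 in input.

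Fmo2 had 1 and 1 peaks in adult brain endothelium, 0 and 0 in retina, 5 and 6 in heart, 5 and 5 in lung, 4 and 3 in liver and 3 and 3 in kidney. Adult inputs had 0 in brain, 0 and 0 in retina, 0 in heart, 3 and 3 in lung, 3 and 3 in liver and 2 and 0 in kidney. Endothelium was at or above input in every organ, with the widest gap in heart. The means were 3 ± 2.09 (SD, n = 12) and 1.40 ± 1.51 (SD, n = 10), and the difference of 1.83 peaks, positive in 5 organs and 0 in retina, had an adjusted p of 0.0414 (exact permutation test). At P6 the means were 2.21 ± 1.63 (SD, n = 14) and 1.1 ± 1.31 (SD, n = 16), with a difference of 1.31 and an adjusted p of 0.0154 by the same exact test. The Fmo2 window also holds Fmo1 and Fmo6, so its peaks cannot be assigned to Fmo2 alone. One region inside Fmo2, chr1:162879378-162880329, had a peak in 8 adult, 6 P6 and 5 E12 endothelial lists of equal length and in 0 input lists of any age, and as deposited in 10, 12 and 11 endothelial lists and in 2 of 10 adult, 7 of 16 P6 and 2 of 3 E12 inputs.

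Both adult calls ended when certain single libraries were left out. Leaving out 1 library at a time, the number of the 8 genes called ran from 0 to 3, with 0 in 14 of 22 fits. Over the same fits the number of all genes called ran from 0 to 884, so at the low end no gene was called. Leaving out the only adult brain input or heart input also took that organ out of the test. Xdh lost its call without the brain input, the heart input, either heart endothelial library, any liver or kidney library, lung endothelial replicate 2 or lung input replicate 2, and its adjusted p ran from 0.0314 to 0.0843 (exact permutation test). Fmo2 kept its call only without retina endothelial replicate 2 or either retina input, with an adjusted p from 0.0408 to 0.107 (exact permutation test), and Cat gained one without retina input replicate 1 (difference −1, adjusted p = 0.0450). Both adult calls also ended with peaks of a −log10 q of at least 5, ranking by fold, a window of 5 kb or libraries compared within 1 kind of read processing (adjusted p from 0.0553 to 0.508). At P6, Xdh stayed called in all 30 fits that left out 1 library and Fmo2 in 29, the exception being kidney endothelial replicate 1 (exact permutation test, adjusted p = 0.0534), while a window of 5 kb ended both calls (adjusted p = 0.944 and 0.790). In the lists as deposited neither gene was called at either age, with differences of 0.08 to 1.42 peaks (adjusted p from 0.350 to 1), and in the adult Gstm1, Por and Cat were then called as lower in endothelium, by −2.17, −4.75 and −2.83 peaks, as were 5131 of all 20721 genes.

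The other 6 genes were not called against input at either age, and in liver they had fewer peaks in endothelium than in input. Their windows also hold other protein-coding genes, from 1 at Cat to 5 at Sult1a1, so the peaks cannot be assigned to these 6 alone. In lists of equal length, the 2 Sult1a1 peaks of adult liver endothelium lay in regions over Sgf29 and over Slx1b and Bola2. In adult liver Ephx1 had 1 and 1 peaks in endothelium and 8 and 7 in input, Gsta4 1 and 1 against 4 and 4, Sult1a1 2 and 2 against 5 and 4, Por 5 and 5 against 8 and 7, Cat 1 and 1 against 4 and 2, and Gstm1 3 and 4 against 5 and 5. The groups did not overlap for any of these 6, where 20.8% of all genes tested were lower in adult liver endothelium with no overlap. In all, 6 of the 8 genes had a lower mean in liver endothelium than in liver input, at P6 as in the adult, where 37.0% of all genes in the adult and 38.1% at P6 were lower. With 2 libraries a group in liver this was not tested. Over the 6 organs together, the differences of these genes ran from −1.17 for Ephx1 to −0.08 for Gstm1 in the adult (exact permutation test, adjusted p of 0.0852 to 1) and from −0.78 for Gsta4 to 0.72 for Ephx1 at P6 (adjusted p of 0.114 to 0.839).

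Peaks at the transcription start divided the 6 genes with a listed start into 2 kinds. Gstm1, Por and Cat, whose starts follow the GC-rich windows printed above, had a peak within 500 bp of the start in all 66 libraries, endothelial and input alike, with equal list lengths and as deposited. These starts were open at E12 as in the adult. At the start of Fmo2 a peak was in 4 of 12 adult endothelial lists of equal length, both from heart and both from lung, in 0 of 14 P6 and in 0 of 11 E12 lists, and in 3 of 10 adult and 2 of 16 P6 inputs. As deposited these counts were 8, 5, 0, 6 and 9, and both adult brain libraries were among the 8.

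Sult1a1 had a start peak in 4 of 12 adult (heart and kidney), 2 of 14 P6 (brain) and 0 of 11 E12 endothelial lists of equal length, and in 11, 9 and 5 as deposited. Ephx1 had one in 3 of 12, 4 of 14 and 3 of 11, and in 9, 11 and 11 as deposited, with no more in adult than in embryonic endothelium. Among inputs of equal list length, Sult1a1 and Ephx1 each had a start peak in 5 of 10 adult and 3 of 16 P6 lists. As deposited these counts were 6 and 11 for Sult1a1 and 9 and 16 for Ephx1. None of the 6 genes was called between adult and P6 (exact permutation test with Benjamini-Hochberg adjustment over 10349 genes, of which 0% were called and 545 had an unadjusted p under 0.05), and 0 of the 6 had an unadjusted p under 0.05. Fmo2 came nearest with a difference of 0.33 of libraries, an unadjusted p of 0.0556 and an adjusted p of 0.889. By the same exact test none was called between endothelium and input in the adult (0% of 10823 genes, 443 at an unadjusted p under 0.05) or at P6 (0.357% of 10924 genes). The test asks whether a peak is there, and a gene with a peak in every library could not differ in it. The smallest p this exact permutation test can give is 7.72e-06 between adult and P6 and 8.57e-05 between adult endothelium and input. In both, a lone gene at that p would stay above 0.05 after adjustment.

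**Figure D5:**
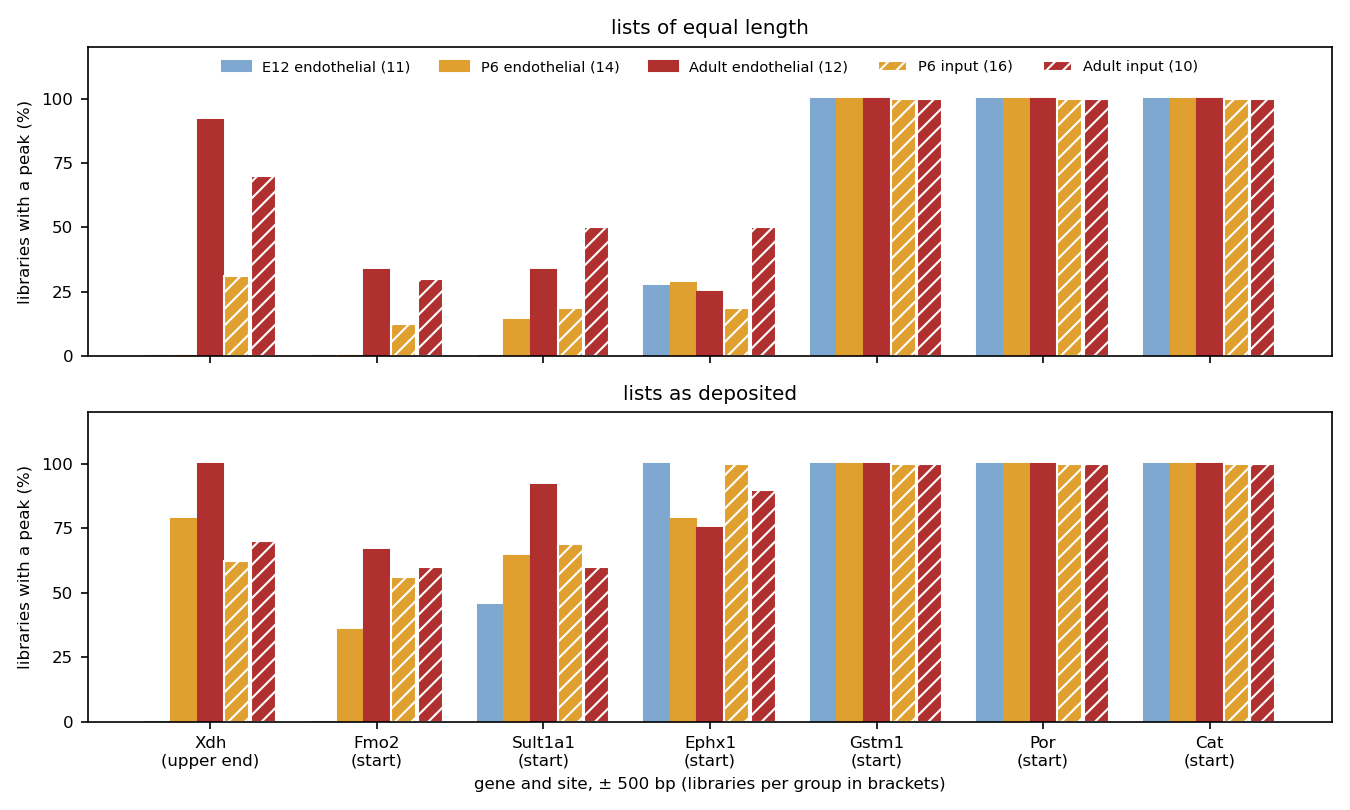
Share of libraries (y axis, %, from 0) with a peak within 500 bp of the start of 6 genes, or of the upper end of Xdh, by age and by endothelial or input origin (hatched), in lists of equal length (top) and as deposited (bottom). Gstm1, Por and Cat stand at 100% in every group, and Xdh and Fmo2 have no bar for E12 endothelium in either panel.

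For brain, where both readouts exist, they can be set side by side, with peaks from lists of equal length. Xdh, at 0.0993 CPM at P8 and 178 in the adult brain, had a mean of 3.33 peaks at P6 and 5 in adult brain endothelium. Fmo2, at 1.47 and 454, had a mean of 1.67 peaks at P6 and 1 in the adult, and no start peak in adult brain in lists of equal length. Cat and Gsta4, lower in the adult than at P8, had differences of −0.33 and 0.67 peaks in brain. As deposited, the brain means at P6 and in the adult were 8.67 and 6 for Xdh and 7.33 and 6.5 for Fmo2. For Cat they were 8 and 6, and for Gsta4 5 and 5. Brain endothelium had 3 P6 and 2 adult ATAC libraries, which with ages of P7 and P8 for the earlier point do not form a matched pair, and no relation between the readouts was tested.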

How the data were processed

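The genes and all gene lists were chosen with earlier results of these data known. Single-cell values are UMI counts per gene and barcode as deposited by the authors; the submitters' processing notes name Cell Ranger, Seurat 4.0.4 and mm10. The E16.5 matrix was read with the gene order of the other libraries: its gene totals correlated at r = 0.978 with those of E12.5 and P8, and at 0.206 and 0.202 with rows moved by 1. UMIs of gated barcodes were summed and scaled to 1000000 (CPM), with exact Poisson intervals at 95%. No doublet caller was run. Leaving out barcodes with markers of other cell types was the only check, and whether it removes doublets was not tested. At least 2 globin markers were in 83.6% of P8 and 54.7% of adult gated barcodes, so that check left these out too.

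ATAC peaks were called per library with MACS 2.1.2, per the file headers, in broad mode without a control; the notes name Bowtie2, SAMtools 1.13, Picard and mm10. The deposited lists give −log10 p and −log10 q values, a fold enrichment over the local background and the pileup signal of each peak, and the authors' −log10 p ranked the peaks. The files name 10139069 to 59082479 tags per library, and list lengths ran from 19437 to 144132 (median 74176). Lists were reduced to 19437 peaks on chromosomes 1 to 19 and X. Peaks within 500 bp of a listed start (presence) or overlapping the gene or within 50 kb (number) were compared by exact 2-sided permutation tests within organs, with equal weight to each organ and Benjamini-Hochberg adjustment over all protein-coding genes with a peak (Python 3.11.15, numpy 2.4.6, scipy 1.17.1); a gene was called at an adjusted p under 0.05. The code of the test was run on simulated independent counts without organ differences, with changes larger than that of Xdh. That run does not show how well the test finds changes in these data. Gene positions are of mm10, and 43.6% to 67.3% of genes with a listed start had a peak there, against 2.35% to 11% after moving starts by 100 kb.

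Genes were named by this rule: the 8 genes; from each list, genes at least 2-fold apart between adult and P8 with at least 50 CPM in either; and the 10 genes of nearest profile. Bulk RNA tables, given per transcript, were not used here. Alternatives were other list lengths, thresholds, rankings, windows and overlaps, a replicate block, strata of like read processing, each library left out, and for single cells other gates, thinning and averaging. One gene that the rule names is not reported here.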

Additional observations from a re-analysis of the deposited data

Results flagged for a closer look

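The peak counts of the 8 genes were checked in the 2 groups of 4 libraries, E12 heart and E12 trunk endothelium. Of these 16 sets of values 2 had a library far from the others, both in trunk. A rate of about 1 in 20 by chance need not hold for small whole counts with ties, so nothing is read from the number flagged. In E12 trunk endothelium, Gsta4 had 1, 1, 1 and 2 peaks within 50 kb in lists of equal length, so that the library with 2 stood apart. In the same group Por had 4, 5, 5 and 5 peaks, and the library with 4 stood apart. In both the step is 1 peak.

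In organs with at least 2 libraries in each group, 4 of the 8 genes had groups that did not overlap and went opposite ways in different organs under the same contrast. Of all genes tested, 14.2% did so between adult and P6 endothelium (1 of the 8 genes), 8.93% between adult endothelium and input (0 of the 8) and 14.9% at P6 (4 of the 8). The difference between organs was not tested in any of these. Between adult and P6 endothelium, Gsta4 had 1 peak more in adult retina and a difference of −1 in liver. Between endothelium and input at P6, Gsta4 differed by 1 in heart, −1.5 in liver and −3.17 in kidney. In that contrast Sult1a1 differed by 2.5 in heart and −3 in liver, and Ephx1 by 2.5 in heart and −2 in liver. Cat differed by 1 in retina, −3.5 in liver and −1.33 in kidney.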

How the results depend on the processing

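In single cells the 5 genes called higher in the adult than at P8 were 5 under every other gate, thinning or averaging tried, and 6 with a limit of 1.5-fold. For peaks within 50 kb, 1 of the 8 genes was called between adult and P6, against 6 (all lower) in lists as deposited, 6 with a −log10 q of at least 5, 0 ranked by fold and 1 leaving out each library in turn. For adult endothelium against input 2 were called, both higher, against 3 as deposited (Gstm1, Por and Cat, all lower), 0 with a −log10 q of at least 5, 0 by fold, 0 in the 5 kb window, 0 within strata of like processing, and 0 to 3 leaving out each library. At P6 2 were called, against 0 as deposited, 0 in the 5 kb window and 1 to 2 leaving out each library. As deposited, 16286 of 20745 genes were called between adult and P6. Leaving out each library, all genes called ran from 146 to 433 between adult and P6. Against input they ran from 0 to 884 in the adult and from 3704 to 4468 at P6. For most other settings the number of all genes called is not given here, so a lost call there cannot be read as particular to these genes. The cause of these changes in the calls was not tested, nor of the reversals below.

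The replicate block had 0 of the 8 genes called in each of the 3 contrasts: Xdh differed by 2.50 between adult and P6 (exact permutation test, adjusted p = 0.239), and against input by 2.80 in the adult (0.243) and 1.58 at P6 (0.127). Deviations from the group means correlated above 0.1 in 0 of 12, 0 of 8 and 0 of 12 same-numbered pairs. With 2 libraries in both groups of an organ, both of its pairs must give the same value, so the pairs are not independent. These counts cannot show whether same-numbered libraries were paired, and no conclusion on pairing is drawn from them. The loss of the calls under the block therefore stands as a limit. Each block held a single library of each group, and libraries without a same-numbered partner were left out. The block test thus had fewer relabellings than the test within organs and could not reach as small a p. The number of all genes called under the block is not given here. How far its coarseness alone ended the calls was not tested. Under the replicate block, differences against P6 input turned to 0.0833 (Gstm1), 0.42 (Sult1a1) and 0.33 (Cat), and at the start of Sult1a1 to 0.17.

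Differences in peaks between adult and P6 reversed in lists as deposited for Xdh (−1.22), Fmo2 (−2.67), Gstm1 (−1.47), Gsta4 (−1.83), Sult1a1 (−4.17) and Cat (−2.39), and with a −log10 q of at least 5 for the same genes (−1.14, −2.44, −0.78, −1.28, −3 and −0.89). Ephx1 turned to 0.19 by fold and 0.25 in the 5 kb window, and ran from −0.42 to 0.25 leaving out each library. Against adult input Gstm1 turned to 0.0833 by fold. Against P6 input, lists as deposited gave 0.58 (Sult1a1), −2 (Ephx1) and −2.58 (Por), a −log10 q of at least 5 gave 0.33, −1.06 and −1.89, and ranking by fold gave 0.36 (Gstm1) and −0.61 (Ephx1).

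At the start, the adult minus P6 share for Ephx1 turned to 0.17 by fold and 0.0556 by peak centre, and ran from −0.111 to 0.0556 leaving out each library. Against adult input, Sult1a1 turned to 0.33 as deposited, and Fmo2 to −0.25 with a −log10 q of at least 5 and −0.0833 by fold, running from −0.10 to 0.17. Against P6 input, Ephx1 turned to −0.22 as deposited, at the start as at either end (the latter chosen after seeing the data), −0.33 with a −log10 q of at least 5 and −0.11 by fold, Sult1a1 to 0.0278 with that limit and Fmo2 to 0.0556 by fold. Equal lists of 19437 peaks leave out the weaker peaks of the longer lists, and 1 library per age limits the single-cell values. The test planned on bulk RNA was not run.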
